A study of Rattus norvegicus with 10 samples.

Results

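The genes described here, with higher signal in the hearts of 24-month-old rats than in those of 6-month-old rats, are 8: Chi3l1, Ecrg4, Sbsn, Cnpy1, Numbl, Cpeb1, Cnp and Synpo. They were picked by name from earlier results of the same age comparison, and every probe set that the platform annotation assigns to 1 of these symbols alone was taken, which gave 11 probe sets of 31042 for 8 genes of 14217. The picking rule used the age difference itself, so the age differences of these genes are given as a description, with no test. The measures that the rule did not use are how the genes vary among arrays of 1 age, how probe sets of 1 gene compare within an age, and the other genes of their pathways.

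The animals were male Fischer-344 rats, an inbred strain, on standard chow, with no further treatment named in the labels. Heart samples labelled Young (6 months, 5 arrays) and Old (24 months, 5 arrays) were profiled in a series designed around genes of mitochondrial metabolism and oxidative phosphorylation. The sample protocols name whole hearts and the series text names ventricles, and atrial tissue may or may not have been included. Nothing in the labels says outright that no rat was used for more than 1 array, so a p-value speaks for the spread among these 10 samples, which may be technical in part. Replicate numbers are those of the labels, which are 1, 2, 3, 4 and 6 for Young and 2, 3, 4, 5 and 6 for Old. Each value is given on a log2 scale relative to the probe set's own median over the 10 arrays (the base of the logarithm was worked out from the spacing of the values), so it holds no absolute level. The median of a single array lay between -0.0061 and 0.0093 at 6 months and between -0.0097 and 0.0038 at 24 months. All 9 measured cardiomyocyte marker genes had a probe set in the brightest of the signal classes inferred from that spacing, as did 8 of 10 fibroblast marker genes.

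The 8 genes do not form a pathway. Chi3l1 encodes a secreted glycoprotein (YKL-40) of the chitinase family that binds chitin without cutting it and is made by macrophages, cartilage cells and other cells of remodelling tissue. Ecrg4 encodes the precursor of the secreted peptide augurin, and Sbsn encodes suprabasin, a secreted protein best known from the upper epidermis. Cnpy1 encodes a canopy-family protein of the endoplasmic reticulum that is linked to fibroblast growth factor (FGF) signalling, and Numbl encodes Numb-like, an endocytic adaptor that opposes Notch. Cpeb1 encodes a protein that binds the cytoplasmic polyadenylation element of mRNAs and controls their translation. Cnp encodes a cyclic nucleotide phosphodiesterase abundant in myelin (not C-type natriuretic peptide, whose gene is Nppc), and Synpo encodes synaptopodin, an actin-associated protein of kidney podocytes and dendritic spines.

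Of the 11 probe sets, 8 had every Old value above every Young value, at least 1 for each gene. The same was true of 3.67% of all 31042 probe sets, while 8.03% passed the limma test after adjustment in either direction and 4.42% with Old higher. Since the genes were picked by this contrast, nothing is read from these shares. For these 8 probe sets the mean difference ran from 0.43 to 1.88, and the gap between the lowest Old and the highest Young value from 0.26 to 0.87. The other 3 probe sets, 1 of Cnp and 2 of Synpo, overlapped between the ages. The label under which the genes were grouped, a large rise, therefore fits neither those 3 probe sets nor Numbl, whose difference was the smallest of the 8. Because the table is centred on the median of the 10 arrays, a probe set without overlap has its highest Young and lowest Old values at equal distances from 0. In whole-tissue RNA, more cells of a type and more RNA per cell cannot be told apart.

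Of the secreted proteins, Chi3l1 had the largest difference of the 8 genes. Its probe set, 1392171_at, read -0.44, -0.86, -0.77, -0.54 and -0.61 in Young replicates 1, 2, 3, 4 and 6, and 0.44, 0.73, 1.55, 1.77 and 1.67 in Old replicates 2, 3, 4, 5 and 6. Old replicates 4, 5 and 6 were close together and Old replicates 2 and 3 stood between them and the Young arrays. The means were -0.64 ± 0.17 (SD, n = 5) and 1.23 ± 0.60 (SD, n = 5), a difference of 1.88 ± 0.22 (SE), or 3.67-fold, with a gap of 0.87. Only 6 of all probe sets had a larger positive difference, as its rank was 7. Ecrg4 (1372646_at) read -0.15, -0.67, -0.31, -0.22 and -0.59 in the Young arrays and 0.53, 0.15, 1.84, 1.40 and 0.97 in the Old arrays. Old replicates 2 and 3 were again the lowest of their age, with replicate 3 only just above the Young arrays, while replicate 4 was the highest. The difference was 1.36 ± 0.25 (SE, n = 5 per age), or 2.58-fold, and the gap of 0.29 was less than the Old SD of 0.67. Sbsn (1373781_a_at) read -0.37, -0.48, -0.47, -0.38 and -0.41 in the Young arrays and 0.37, 1.01, 0.64, 0.79 and 0.71 in the Old arrays. Here the Young arrays spanned 0.11 and the Old arrays 0.64, and Old replicate 3, low for Ecrg4, was the highest. The difference was 1.12 ± 0.09 (SE), or 2.18-fold, with a gap of 0.74.

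Of the signalling regulators, Cnpy1 (1384874_at) read -0.61, -0.65, -0.38, -0.71 and -0.89 in the Young arrays and 0.38, 0.59, 0.46, 0.62 and 0.81 in the Old arrays. Both ages were spread alike, with an SD of 0.18 at 6 months and 0.17 at 24 months. The difference was 1.22 ± 0.10 (SE, n = 5 per age), or 2.32-fold, and the gap of 0.76 was 4.35 times the pooled SD. Numbl (1381215_at) read -0.13, -0.28, -0.25, -0.21 and -0.16 in the Young arrays and 0.13, 0.23, 0.26, 0.23 and 0.25 in the Old arrays. This was the tightest gene of the 8, with SDs of 0.06 and 0.05. Its difference of 0.43 ± 0.05 (SE), or 1.34-fold, ranked 799 of all probe sets, although its gap of 0.26 was 4.34 times the pooled SD, close to that of Cnpy1 and to the 4.41 of Sbsn. For Chi3l1 and Ecrg4, with the 2 largest differences, the gap was 1.97 and 0.59 times the pooled SD. Cpeb1 (1392996_at), the translational regulator, read -0.43, -0.51, -0.48, -0.24 and -0.79 in the Young arrays and 0.24, 0.45, 0.51, 0.76 and 0.38 in the Old arrays. Young replicate 4 was the Young array nearest to the Old ones and Old replicate 2 the Old array nearest to the Young ones. The difference was 0.96 ± 0.11 (SE), or 1.94-fold, with a gap of 0.48.

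**Figure D1:**
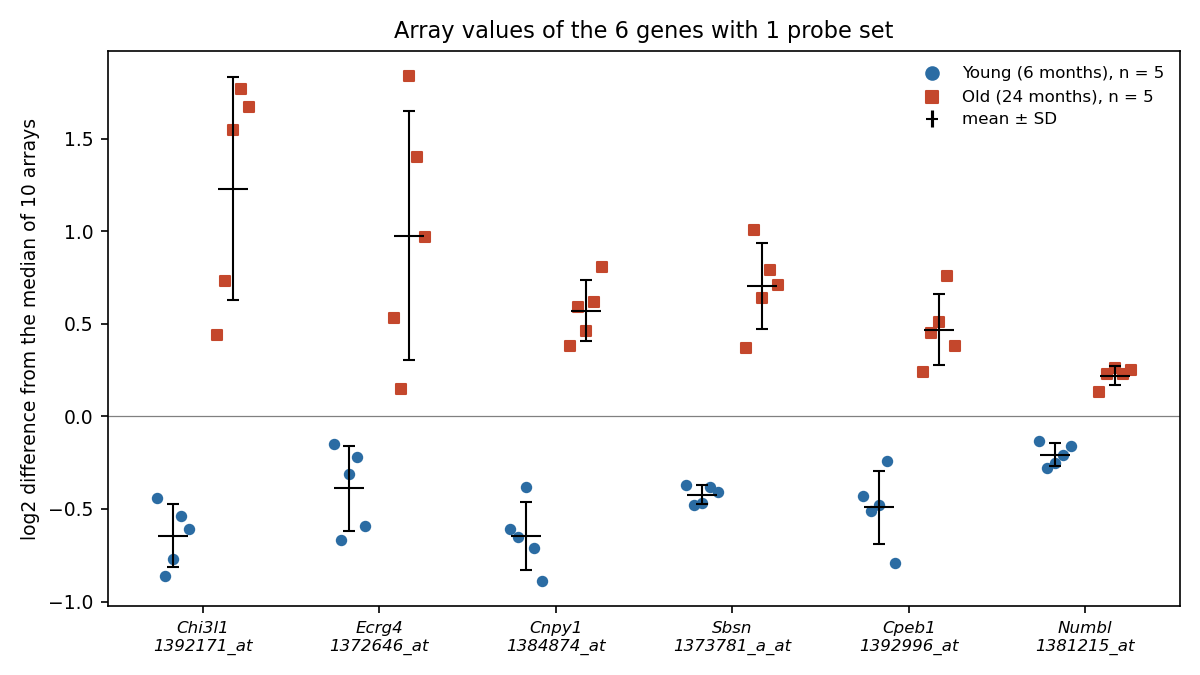
Log2 difference from the median of the 10 arrays (vertical axis) for the 6 genes with 1 probe set (horizontal axis), with Young arrays as circles, Old arrays as squares and mean ± SD in black. The ages do not overlap for any of the 6, the Old arrays of Chi3l1 and Ecrg4 are spread most (SD 0.60 and 0.67), and those of Numbl least (SD 0.05).

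Cnp and Synpo had more than 1 probe set, and the probe sets of each gene did not show the same thing. For Cnp, 1387897_at read -0.38, -0.43, -0.28, -0.36 and -0.21 in the Young arrays and 0.26, 0.30, 0.21, 0.49 and 0.46 in the Old arrays, a difference of 0.67 ± 0.07 (SE, n = 5 per age), or 1.60-fold, with a gap of 0.41. The other probe set, 1370693_a_at, read 0.04, -0.09, 0.00, -0.21 and -0.06 in the Young arrays and -0.38, 0.00, 0.12, 0.39 and 0.46 in the Old arrays. There Old replicate 2 was the lowest of all 10 arrays, Old replicates 5 and 6 were the highest, and the difference was 0.18 ± 0.13 (SE), or 0.31 without Old replicate 2. Both probe sets of Cnp had Old replicates 5 and 6 as their 2 highest arrays. For Synpo, 1388786_at read -0.42, -0.32, -0.43, -0.26 and -0.24 in the Young arrays and 0.24, 0.73, 0.78, 0.70 and 0.97 in the Old arrays, a difference of 1.02 ± 0.11 (SE), or 2.03-fold, with a gap of 0.49. The probe set 1387501_at read -0.08, -0.01, 0.37, -0.15 and 0.26 in the Young arrays and 0.01, 0.04, -0.02, -0.16 and 0.01 in the Old arrays. Its difference was -0.10 ± 0.09 (SE), and its 2 highest arrays were Young replicates 3 and 6. It is the 1 Synpo probe set that the annotation pairs with a RefSeq mRNA record. The last, 1394907_at, read -0.18, 0.03, 0.01, -0.30 and -0.01 in the Young arrays and 0.06, 0.17, -0.07, 0.41 and -0.17 in the Old arrays, a difference of 0.17 ± 0.10 (SE). As means over their probe sets, Cnp differed by 0.43 ± 0.09 (SE) and Synpo by 0.36 ± 0.06 (SE), so the value for either gene depends on which probe set is read.

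The probe sets of 1 gene were also compared among arrays of the same age, which the choice of genes did not use. After the mean of each age was subtracted, the 2 Cnp probe sets had Pearson r = 0.62 (exact permutation p = 0.135) and Spearman rho = 0.61 (exact permutation p = 0.114) over the 10 arrays. Without the 2 arrays farthest from the median, r was 0.58. For Synpo the 3 pairs of probe sets gave r of -0.06, 0.18 and -0.25 and rho of 0.04, 0.19 and -0.53, with exact permutation p between 0.552 and 0.766 for r and between 0.154 and 0.912 for rho. None of these 4 pairs passed after adjustment (smallest adjusted p = 0.539 by the exact permutation test). No likeness among the Synpo probe sets was therefore detectable with this number of arrays. All 11 probe sets fell in the middle signal class, inferred to hold values between 4 and 8 before centring, which holds 72.7% of all probe sets, so class did not separate the differing Synpo probe sets.

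**Figure D2:**
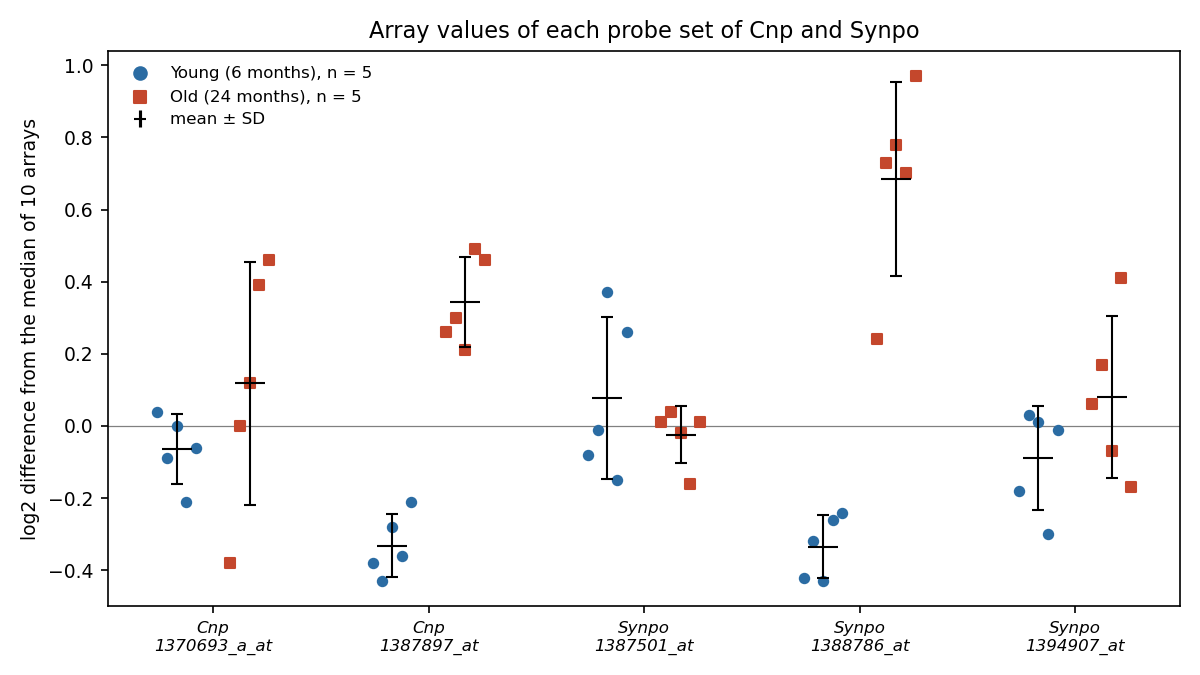
Log2 difference from the median of the 10 arrays (vertical axis) for each probe set of Cnp and Synpo (horizontal axis), with Young arrays as circles, Old arrays as squares and mean ± SD in black. The ages are apart for 1387897_at of Cnp and 1388786_at of Synpo and overlap for the other 3 probe sets.

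Single arrays took the same place in several genes. Old replicate 2 was the lowest Old array in 6 of the 8 probe sets without overlap (Chi3l1, Sbsn, Cnpy1, Cpeb1, Numbl and 1388786_at of Synpo), compared with 35.0% of all 1138 probe sets whose Old values all lay above the Young values. Over all probe sets, Old replicate 2 correlated with the other Old arrays at 0.176 or less, while Old replicates 5 and 6 reached 0.570 with each other. Young replicate 2 was the lowest Young array in 5 of the 8 (Chi3l1, Ecrg4, Sbsn, Numbl and 1387897_at of Cnp), compared with 39.9% of those probe sets. It was also the lowest for Nppa and Postn and had the highest adipocyte marker score, 1.04, where the other arrays lay between -0.31 and 0.04. Without Old replicate 2 the difference of Chi3l1 was 2.08 and that of Sbsn 1.21, and without Young replicate 2 they were 1.82 and 1.11.

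The sequences before the start of these genes were read to show whether those that are higher together have letters in common there. The 250 bases upstream of each start listed by RefSeq (build GRCr8) were searched on both strands for the TATA box letters TATAAA, the AP-1 letters TGANTCA and the GC box letters GGGCGG, patterns that share no bases with one another, although neighbouring GC boxes may overlap and the AP-1 letters read the same on both strands. All 8 genes matched, with 9 windows, since Sbsn has 2 listed starts. The windows of the 5 single-probe-set genes with the largest differences are printed 5′ to 3′ on the strand of the gene, with matches in capitals, and for Sbsn the window of its second start is given, the one with matches. They lie at chr13:48193589-48193838 (plus strand, Chi3l1), chr9:53484790-53485039 (plus, Ecrg4), chr4:7915919-7916168 (plus, Cnpy1), chr1:95128731-95128980 (plus, Sbsn) and chr1:144816264-144816513 (minus, Cpeb1).
Chi3l1: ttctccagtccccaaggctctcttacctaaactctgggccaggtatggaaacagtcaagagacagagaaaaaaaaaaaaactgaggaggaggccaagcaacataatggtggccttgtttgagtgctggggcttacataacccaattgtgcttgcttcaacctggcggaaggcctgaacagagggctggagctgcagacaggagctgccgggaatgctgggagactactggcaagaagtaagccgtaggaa
Ecrg4: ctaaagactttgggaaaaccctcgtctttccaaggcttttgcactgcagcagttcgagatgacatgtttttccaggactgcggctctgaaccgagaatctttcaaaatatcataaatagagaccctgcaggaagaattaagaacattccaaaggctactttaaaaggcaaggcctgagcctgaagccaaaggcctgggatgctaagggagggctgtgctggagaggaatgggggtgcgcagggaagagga
Cnpy1: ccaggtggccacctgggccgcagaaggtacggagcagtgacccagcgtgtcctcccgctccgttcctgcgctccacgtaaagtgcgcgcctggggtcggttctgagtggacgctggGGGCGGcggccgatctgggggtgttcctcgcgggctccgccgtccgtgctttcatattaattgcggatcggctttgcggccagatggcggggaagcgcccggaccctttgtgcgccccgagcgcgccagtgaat
Sbsn: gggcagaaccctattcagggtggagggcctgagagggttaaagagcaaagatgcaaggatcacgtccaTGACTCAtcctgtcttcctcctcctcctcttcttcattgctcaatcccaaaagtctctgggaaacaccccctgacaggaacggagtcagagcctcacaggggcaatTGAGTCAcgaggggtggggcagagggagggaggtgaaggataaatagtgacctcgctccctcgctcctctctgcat
Cpeb1: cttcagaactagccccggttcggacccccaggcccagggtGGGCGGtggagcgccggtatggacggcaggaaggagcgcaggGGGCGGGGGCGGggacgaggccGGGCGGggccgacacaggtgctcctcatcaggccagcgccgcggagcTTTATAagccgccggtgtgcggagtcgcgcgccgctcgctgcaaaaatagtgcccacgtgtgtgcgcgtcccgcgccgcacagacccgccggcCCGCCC
In Cpeb1 the capitals mark 5 GC boxes and a TATA box on the other strand, 99 bases before the start, and in Cnpy1 a single GC box. The Sbsn window holds the AP-1 letters at 182 and 76 bases before the start, while those of Chi3l1 and Ecrg4 hold none of the 3. Counting all 8 genes, GC boxes were found in 5 genes (Cnpy1, Cpeb1, Numbl, Cnp and Synpo), AP-1 letters in 1 and TATA letters in 1. Among 33469 RefSeq windows of the same length, 30.5% held the GC box, 6.34% the AP-1 letters and 12.9% the TATA letters, beside 5, 1 and 1 of the 9 windows here. The share of G and C was 51.2% in Chi3l1 and 48.8% in Ecrg4, near the median of 51.2% over all windows. All 5 genes with a GC box, whose letters are G and C alone, lay above the upper quartile of 60.0%. Their shares were 73.6% in Cpeb1, 68.0% in Cnpy1, 66.4% in Numbl and 60.4% in both Cnp and Synpo. The Sbsn windows, without a GC box, had 69.2% and 55.2%. A match is a description of the letters alone, and no match was shared by all of the genes.

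To see whether the genes varied together beyond the age difference, each was correlated with the others over the 10 arrays after the mean of each age was subtracted, with gene values as means over probe sets. A correlation over all arrays without this step would hold the age gap that chose the genes and is not given. Of the 28 pairs, 25 had an r above 0, with a median of 0.35 and a range from -0.15 to 0.81. Of the 3 below 0, Ecrg4 with Synpo (-0.11) and Cpeb1 with Synpo (-0.15) turned to 0.25 and 0.21 with the non-overlapping probe set of Synpo. None of the 28 passed after adjustment over 44 pairs (smallest adjusted p = 0.113, exact permutation test), and 2 had an unadjusted p under 0.05. The first of these was Chi3l1 with Numbl (r = 0.66, exact permutation p = 0.00514, adjusted p = 0.113; rho = 0.54, exact permutation p = 0.0637). It gave r = 0.75 without the 2 arrays farthest from the Chi3l1 median and r = 0.40 without Old replicate 2 (exact permutation p = 0.0531). The other, Cnp with Synpo (r = 0.57, exact permutation p = 0.047, adjusted p = 0.295; rho = 0.64, exact permutation p = 0.0386), gave r = 0.42 without the 2 farthest arrays. It gave r = 0.31 without Old replicate 2 (exact permutation p = 0.236). With the non-overlapping probe set of each gene, that pair had r = 0.36 (exact permutation p = 0.501). The highest r of all, Chi3l1 with Cnp at 0.81, did not pass either (exact permutation p = 0.0708, adjusted p = 0.295; rho = 0.70, exact permutation p = 0.128). It was 0.35 without the 2 farthest arrays, so it rests on those, and 0.47 with the non-overlapping probe set of Cnp.

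**Figure D3:**
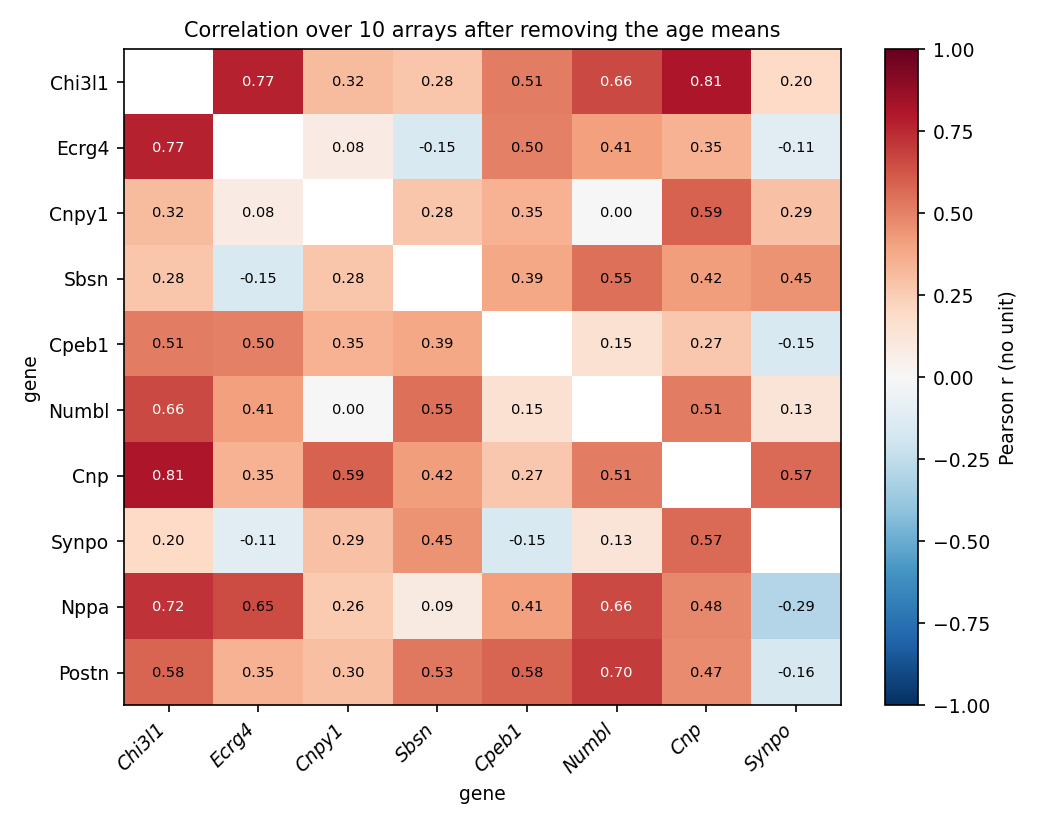
Pearson r over 10 arrays after subtracting the mean of each age, for each of the 8 genes (horizontal axis) with the other 7 and with Nppa and Postn (vertical axis), red for positive and blue for negative values. Most squares are above 0, with the highest at 0.81 for Chi3l1 and Cnp, and those of Synpo with Nppa and Postn, as means over 3 probe sets, are -0.29 and -0.16, which turn to 0.33 with its non-overlapping probe set.

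Nppa, the gene for atrial natriuretic peptide, and Postn, the gene for the matrix protein periostin, were the 2 references for the same question. Nppa (1367564_at) read -0.55, -2.62, -1.45, -0.67 and -1.58 in the Young arrays and 0.78, 0.55, 1.60, 1.59 and 2.05 in the Old arrays. Postn (1373911_at) read -0.33, -2.37, -1.34, -0.47 and -1.46 in the Young arrays and 0.33, 1.19, 0.84, 1.59 and 1.39 in the Old arrays. In both, Young replicates 1 and 4 were the highest Young arrays. With Nppa, 7 of the 8 genes had an age-removed r above 0 (median 0.44, from -0.29 to 0.72), and with Postn also 7 (median 0.50, from -0.16 to 0.70). The same share over all other genes was not taken, so nothing is read from these counts either. As a mean over its 3 probe sets, Synpo had r = -0.29 with Nppa and -0.16 with Postn, but the sign turned with its non-overlapping probe set (r = 0.33 with each, exact permutation p = 0.347 and 0.256). None of these 16 pairs passed after adjustment over the 44 pairs (exact permutation test), and 5 had an unadjusted p under 0.05. Chi3l1 with Nppa had r = 0.72 (exact permutation p = 0.00417, adjusted p = 0.113) and rho = 0.76 (exact permutation p = 0.00514), with r between 0.66 and 0.81 when any 1 array was left out and 0.80 without the 2 farthest. Ecrg4 with Nppa had r = 0.65 (exact permutation p = 0.0215, adjusted p = 0.229) and rho = 0.72 (exact permutation p = 0.0232). It fell past an unadjusted 0.05 when either of 2 arrays was left out (up to p = 0.0688, exact permutation test), and was 0.73 without the 2 farthest. With Postn, the values were r = 0.58 for Chi3l1 (exact permutation p = 0.0185, adjusted p = 0.229; rho = 0.59, exact permutation p = 0.0336), and r = 0.92 without the 2 farthest arrays. Without Old replicate 2 that r was 0.43 (exact permutation p = 0.091). For Sbsn with Postn, r was 0.53 (exact permutation p = 0.026, adjusted p = 0.229; rho = 0.71, exact permutation p = 0.0141), 0.79 without the 2 farthest arrays and 0.34 without Old replicate 2. Numbl with Postn had r = 0.70 (exact permutation p = 0.0423, adjusted p = 0.295; rho = 0.44, exact permutation p = 0.27), which was 0.24 without the 2 farthest arrays and rests on them.

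Markers of cell types that a heart can hold were set beside the genes. In the age comparison over genes, where 11.9% of all genes passed (6.77% higher and 5.09% lower in Old hearts), 5 of 12 macrophage markers rose, among them Cd163 (0.84 ± 0.15 SE, limma adjusted p = 0.00589), C1qa (0.86) and Mrc1 (1.04), and so did 6 of 10 fibroblast markers, among them Dpt (0.70 ± 0.11 SE, limma adjusted p = 0.00267), Mfap5 (0.69) and Fbln1 (0.53, with 0.25 and 0.81 on its 2 probe sets). The macrophage score, the mean of the markers per array, lay between -0.47 and -0.08 in Young and between -0.09 and 0.86 in Old arrays, and the fibroblast score between -0.33 and -0.05 and between -0.09 and 0.42. The median differences were 0.59 and 0.42, against -0.005 over all genes. Of the T and NK lymphocyte markers 2 of 10 rose (Klrd1, 0.96, and Gzmb, 1.46), of the neutrophil markers 1 of 6 (S100a9, 1.08), of the endothelial markers 2 of 7 (Vwf, 0.94, and Tek, 0.35) and of the atrial markers 1 of 9 (Myl7, 1.45). Of the cardiomyocyte markers, 2 of 9 fell (Myh6, -1.24, with -2.02 and -0.46 on its 2 probe sets, and Ryr2, -0.55, with -0.71 and -0.40), and their score, from 0.09 to 0.28 in Young and from -0.27 to 0.04 in Old arrays, did not overlap. The atrial score did not overlap between the ages either, and was higher in Old (0.07 to 0.18) than in Young arrays (-0.22 to 0.00). That score leans on Myl7, whose difference of 1.45 was far above the median of 0.15 over its 9 genes. Of the 9, 7 had a higher mean in Old arrays, while Tbx5 (-0.29) and Kcnj5 (-0.12) were lower. The score without Myl7 was not tested. Among Schwann cell and glia markers 1 of 9 rose (Egr2, 0.34, with 0.11 and 0.57 on its 2 probe sets), and among mesothelial markers 1 of 7 (Krt18, 0.25). No marker of B lymphocytes (3 measured, Ms4a1 at -0.24), smooth muscle and pericytes (8, Acta2 at 0.13), neurons (11, Stmn2 at -0.17), keratinocytes (10, Krt10 at -0.20), adipocytes (6, Fabp4 at 0.39) or cartilage (5, Comp at 0.27) passed the limma test after adjustment. Some of these calls were lost when 1 array was left out, with limma adjusted p up to 0.102. Vwf was lost without Young replicate 3, S100a9 without Young replicate 2, 3, 4 or 6, Mrc1 without Young replicate 2 or 3 or Old replicate 5 or 6, and Klrd1 without Young replicate 2, 3 or 4 or Old replicate 6. Myl7 was lost without Young replicate 2, 3 or 4 or Old replicate 4, 5 or 6, and Gzmb without any of the Young arrays or Old replicate 3 or 6. Myl7 was also lost with quantile normalization and Gzmb with array weights.

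Within ages, Chi3l1 had its highest r with the fibroblast and macrophage scores. Its age-removed r was 0.92 with the fibroblast score (exact permutation p = 0.0059; rho = 0.94, exact permutation p = 0.00104) and 0.88 with the macrophage score (exact permutation p = 0.00993; rho = 0.95, exact permutation p = 0.000417). Without the 2 farthest arrays these were 0.95 and 0.68, and with any 1 array left out they stayed at 0.89 or more and 0.85 or more. After adjustment over all 120 pairs of a gene and a score, neither passed (adjusted p = 0.275 and 0.298, exact permutation test). Ecrg4 had r = 0.81 with the fibroblast score (exact permutation p = 0.0273, adjusted p = 0.409; rho = 0.81, exact permutation p = 0.035) and 0.83 without the 2 farthest arrays. Without Old replicate 3 it was 0.67 (exact permutation p = 0.1). Both scores were higher in the Old hearts, and their part in the age differences of Chi3l1 and Ecrg4 was not tested. Sbsn had r = 0.01 with the fibroblast score (exact permutation p = 0.984) and rho = 0.26 (exact permutation p = 0.531). Without the 2 farthest arrays that r was 0.83, so the value near 0 rests on them. Its strongest values were r = 0.85 with the neuron score (exact permutation p = 0.0262, adjusted p = 0.409; rho = 0.61, exact permutation p = 0.174) and -0.77 with the cardiomyocyte score (exact permutation p = 0.0247, adjusted p = 0.409; rho = -0.81, exact permutation p = 0.0247). These fell to 0.33 and -0.30 without the 2 farthest arrays and rest on them.

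In all, 11 of the 120 pairs had an unadjusted p under 0.05 and 1 passed after adjustment, Synpo with the cartilage score (r = 0.89, exact permutation p = 0.000139, adjusted p = 0.0167; rho = 0.92, exact permutation p = 0.00167). It gave 0.80 without the 2 farthest arrays. No pair of a gene and a score passed with quantile normalization, so this call was lost there. Nor did any pass when Young replicate 1, 3, 4 or 6 or Old replicate 2, 4 or 6 was left out. Fewer arrays allow fewer orders, so a single pair then passes after adjustment over 120 pairs only with a p at or near the smallest possible. Pairs did pass without Young replicate 2 (3), Old replicate 3 (3) or Old replicate 5 (1). By themselves, the losses do not show how much the pair of Synpo and the cartilage score changed. With any 1 array left out, its r lay between 0.86 and 0.94 (exact permutation p at most 0.00139). The r of 0.89 belongs to the mean of the 3 Synpo probe sets. The single probe sets had r = 0.40, 0.62 and 0.43 with the cartilage score (exact permutation p = 0.163, 0.165 and 0.301). With the non-overlapping probe set alone no pair passed after adjustment, and 6 had an unadjusted p under 0.05 (exact permutation test). The cartilage score rests on 5 genes and ranged from -0.11 to 0.11. Synpo had an r nearly as high, 0.87, with the smooth muscle and pericyte score (exact permutation p = 0.00688, adjusted p = 0.275). Its single probe sets had r = 0.34, 0.40 and 0.68 there. Synpo also had r = 0.67 with the neuron score and -0.64 with the cardiomyocyte score (exact permutation p = 0.0193 and 0.0483). For Cnp with the macrophage score r was 0.82 (exact permutation p = 0.0494), or 0.55 with its non-overlapping probe set. Cnp, with r = 0.29 for the Schwann cell and glia score, and Sbsn, with 0.09 for the keratinocyte score, had no pair with an unadjusted p under 0.05 among the scores of the tissues they are best known from. Chi3l1, which cartilage cells also make, had r = 0.20 with the cartilage score (exact permutation p = 0.696) and rho = -0.08 (exact permutation p = 0.858).

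**Figure D4:**
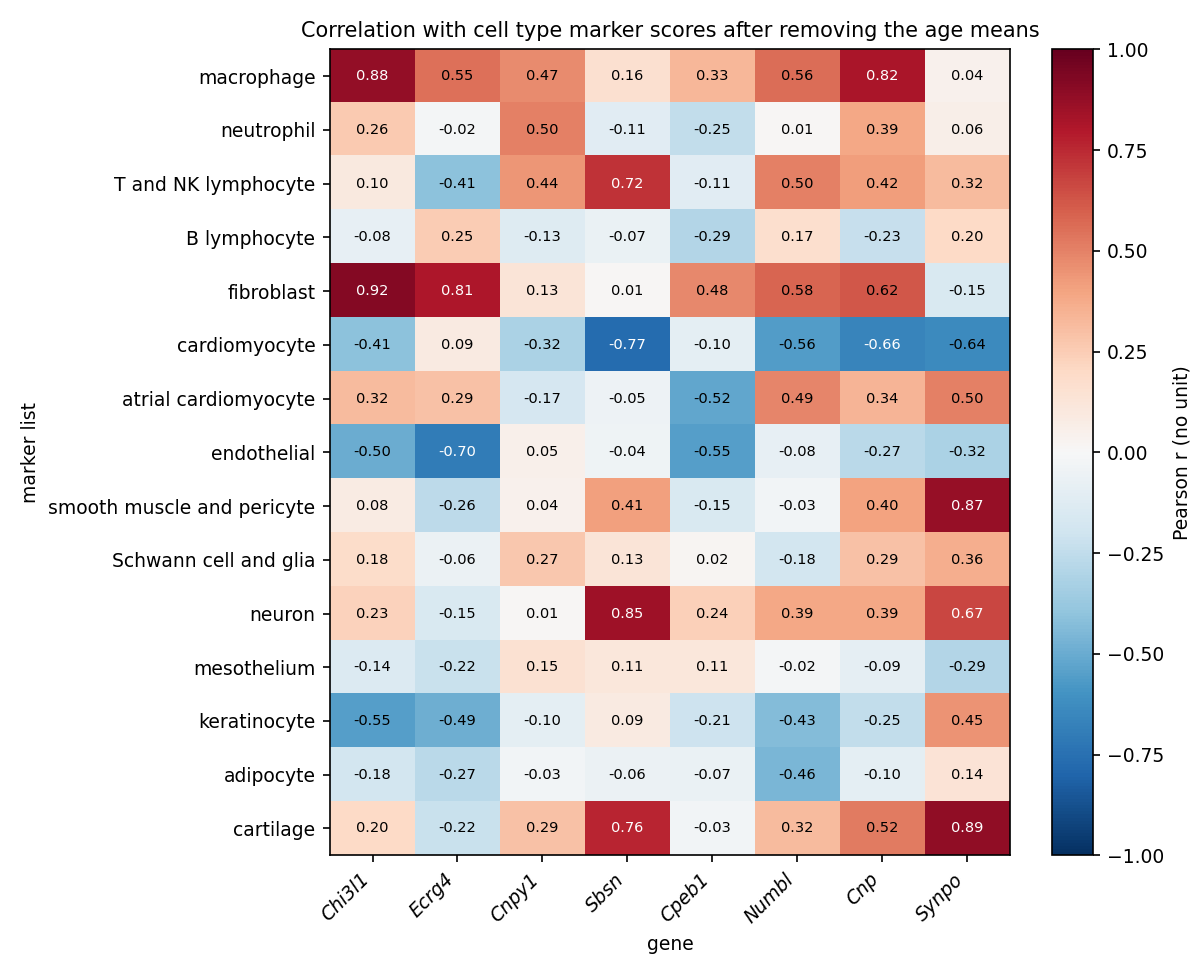
Pearson r over 10 arrays after subtracting the mean of each age, for each of the 8 genes (horizontal axis) with 15 cell type marker scores (vertical axis), red for positive and blue for negative values. Chi3l1 reaches 0.92 with the fibroblast score and 0.88 with the macrophage score, and Synpo 0.89 with the cartilage score and 0.87 with the smooth muscle and pericyte score.

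Among all other 14209 genes, those closest to each gene by age-removed r over the 10 arrays were found as a description, with no test, since the closest of so many genes were searched for with 10 arrays. The closest 2 had r between 0.89 and 0.98 for every one of the 8 genes. The gene closest to Chi3l1 was Col3a1 (r = 0.98), followed by Col1a2 (0.95), both fibrillar collagen genes and both in the fibroblast list. Col3a1 read 0.15, -0.27, -0.15, 0.07 and -0.10 in the Young arrays and -0.33, -0.07, 0.30, 0.50 and 0.50 in the Old arrays. Young arrays had the same order in Chi3l1 and Col3a1, from replicate 2 at the bottom through 3, 6 and 4 to 1. The ages overlapped in Col3a1, and neither collagen passed the age comparison (0.24 ± 0.15 SE, limma adjusted p = 0.355, and 0.19 ± 0.11 SE, limma adjusted p = 0.306). In Young replicate 1 and Old replicate 3, for instance, Col3a1 read 0.15 and -0.07 while Chi3l1 read -0.44 and 0.73. Col1a1, another fibrillar collagen gene, added after its values were seen, had r = 0.78 with Chi3l1, or 0.57 without Old replicate 2. Closest to Ecrg4 were Rab18 (0.97), a small GTPase gene, and the basement membrane collagen gene Col4a5 (0.93). Cnpy1 was closest to the neuropeptide genes Calca (0.91) and Gal (0.89), and Sbsn to Tex56p (0.95, or 0.36 without the 2 farthest arrays) and to Areg (0.93), which encodes the growth factor amphiregulin. Next to Cpeb1 were Tmem201 (0.91) and the anthrax toxin receptor gene Antxr2 (0.91), and next to Numbl were Fbxo36 (0.95) and the kinesin gene Kif2a (0.93). Cnp was closest to the receptor phosphatase gene Ptpro (0.96) and the sorting nexin gene Snx10 (0.96), and Synpo to the luteinizing hormone receptor gene Lhcgr (0.98) and to Acy3 (0.94). For Cnp and Synpo these values belong to means over probe sets, and the Synpo probe sets had r of only -0.06, 0.18 and -0.25 among themselves. Several of the closest genes varied little over the 10 arrays, so their r rests on small differences. Calca lay between -0.15 and 0.11, Gal between -0.11 and 0.19, Tex56p between -0.11 and 0.11, and Lhcgr between -0.08 and 0.12. Of these 16 genes, Snx10 (0.57 ± 0.08 SE, limma adjusted p = 0.00233), Ptpro (0.33, limma adjusted p = 0.0334) and Acy3 (0.23, limma adjusted p = 0.0352) rose with age and the other 13 did not pass.

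**Figure D5:**
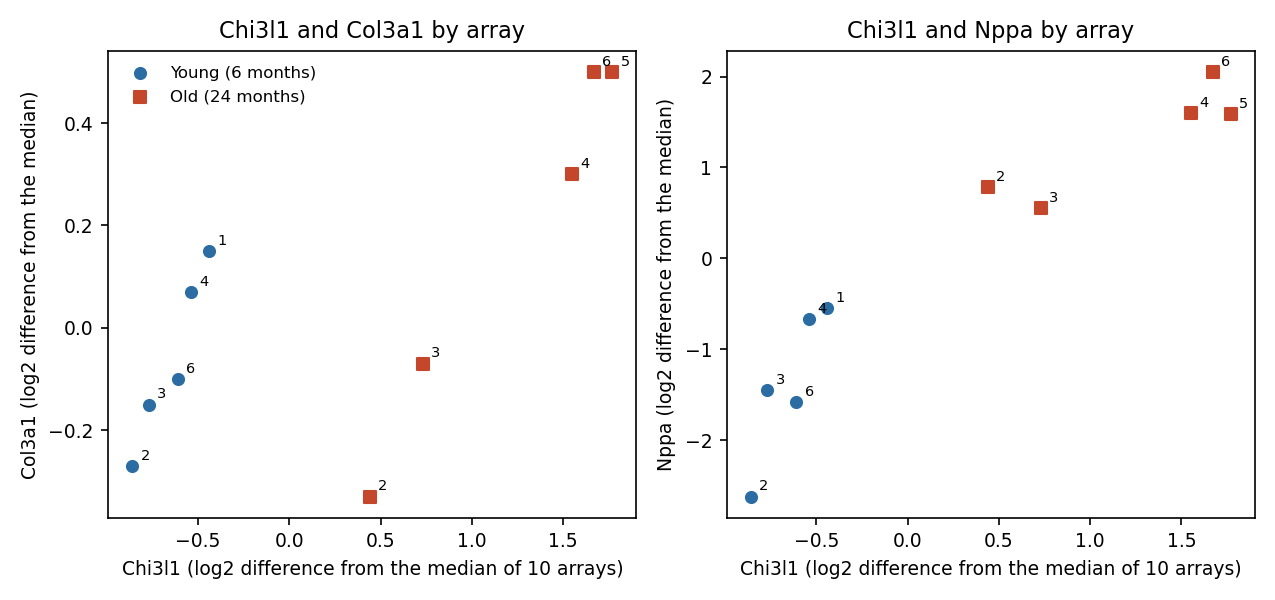
Log2 difference from the median of the 10 arrays for Chi3l1 (horizontal axes) and for Col3a1 (left) or Nppa (right) on the vertical axes, with 1 point per array, numbered by replicate, circles for Young and squares for Old. Within each age the arrays run upward together, and Col3a1 overlaps between the ages (Young from -0.27 to 0.15, Old from -0.33 to 0.50) while Chi3l1 does not.

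With all arrays and no weights, genes of the pathways of these genes, except Sbsn, passed about as often as genes in general. No list was made for Sbsn. Over 7 lists of related genes, without the 8 themselves, 15 of 138 measured genes passed the limma test (10.9%), against 11.9% of all genes, 9 of them higher and 6 lower. For Cnpy1, 4 of 29 genes of the canopy family and FGF signalling passed, with the growth factor genes Fgf13 (-0.34 ± 0.07 SE, limma adjusted p = 0.013) and Fgf7 (-0.20) lower, the receptor gene Fgfr1 (0.20, with 0.07 and 0.33 on its 2 probe sets) among 2 that rose, and a median of -0.03. For Numbl, 3 of 30 Notch genes passed. The ligand gene Jag1 rose (0.45 ± 0.08 SE, limma adjusted p = 0.00444), while the ligand gene Jag2 (-0.28) and Lnx1, the ligase gene for Numb (-0.35, with -0.55 and -0.15 on its 2 probe sets), fell, and the list's median was -0.06. For Cpeb1, 1 of 22 genes of cytoplasmic polyadenylation passed, its relative Cpeb3, which fell (-0.28 ± 0.08 SE, limma adjusted p = 0.0401) with a list median of -0.01. Of 11 genes of the chitinase family and the proposed receptors of Chi3l1, the galectin gene Lgals3 rose (0.69 ± 0.14 SE, limma adjusted p = 0.00776) and the list's median was 0.04. Of 12 processing enzymes and proposed receptors of Ecrg4, 2 rose, the scavenger receptor gene Stab1 (1.08 ± 0.16 SE, limma adjusted p = 0.0021) and Ly96 (0.61), which encodes the partner of a Toll-like receptor, with a median of 0.05. These 3 genes are also active in macrophages, whose markers were higher in the same arrays, and the part of those cells in their rise was not tested. For Cnp, 1 of 16 other myelin genes passed, Pllp (0.55 ± 0.14 SE, limma adjusted p = 0.0237), with a list median of 0.00. For Synpo, 3 of 18 genes passed, the alpha-actinin genes Actn1 (0.32, higher, with 0.08 and 0.57 on its 2 probe sets) and Actn2 (-0.46, lower) and the scaffold gene Iqgap1 (0.38, higher), with a median of 0.04. Of the 14 pathway genes named here, 9 kept their call whichever array was left out, and the other 5 lost it without some of them (limma adjusted p up to 0.0996). Fgf7 lost it without Young replicate 2, 3 or 6 or Old replicate 6, and Pllp without Young replicate 2, 3 or 4 or Old replicate 5, or with quantile normalization. Fgfr1 lost it without Young replicate 1, 3 or 4 or Old replicate 4, 5 or 6, Cpeb3 without Young replicate 2, 3 or 4 or Old replicate 3, 5 or 6, and Iqgap1 without Young replicate 2, 3, 4 or 6 or Old replicate 4, 5 or 6.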

How the data were processed

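Expression was measured on Affymetrix Rat Genome 230 2.0 arrays, 5 for each age, from total heart RNA that was copied in a two-cycle cDNA protocol and labelled with biotin, per the labels' protocols. The deposited table gives, for every array, signed log2 values of 31042 probe sets. Their log base was worked out from their spacing, the median of every probe set over the 10 arrays is 0 (tolerance 1e-06), and for the software, background correction and array normalization the entry is: not given in the sources used here. So the values carry differences between arrays and no absolute level, and the number of arrays limits the precision. This spacing also gave an approximate brightness class for each probe set.

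Gene names came from the platform annotation, and symbols were brought up to date by their gene identifiers in a RefSeq table (assembly GRCr8; 20826 probe sets with 1 symbol, 436 with several and left unnamed, 9780 with none; 20758 of the first matched). Gene values are means over the probe sets of a gene. For the age comparison, limma 3.58.1 in R 4.3.3 fitted age alone by lmFit and eBayes, over all probe sets and over all 14217 genes, with Benjamini-Hochberg adjustment and a threshold of 0.05. The 8 genes were picked by this same contrast, so their age differences are given with no test. Correlations between genes were taken over 10 arrays after the mean of each age was subtracted, with a two-sided exact permutation test over the 14400 orders of the arrays within ages. They were adjusted over 44 pairs for the 8 genes with each other and with Nppa and Postn, and over 120 pairs with cell type marker scores. Scripts were tested on simulated data, and used Python 3.11.15, numpy 2.4.6, pandas 2.3.3 and matplotlib 3.10.9.

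The genes, the marker and pathway lists and the left-out arrays were chosen with earlier results of these data known. Named besides the 8 genes were up to 3 genes of each list with the smallest p among those past the threshold (or 1 where none passed), and the 2 genes closest to each of the 8 by age-removed correlation. The other settings tried were array centring, quantile normalization, array weights, each array left out in turn, 2 arrays left out together, the number in the title as a block, other summaries of probe sets, a filter on dim probe sets and rank correlation. One setting, the use of a single probe set for Cnp and Synpo, was chosen after seeing the data.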

Additional observations from a re-analysis of the deposited data

Results flagged for a closer look

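For Numbl, the value of Old replicate 2 (0.13) stood apart from those of the other 4 Old arrays, which lay between 0.23 and 0.26. Its gap to the nearest of them was 0.784 of the group's range, above Dixon's critical value for 5 samples. It was the only flag in 26 groups tested (13 probe sets, including those of Nppa and Postn, at 2 ages), where chance gives about 1 in 20. Without that array the difference of Numbl was 0.45, against 0.43.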

How the results depend on the processing

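The count of 8 probe sets without overlap was the same under array centring and quantile normalization. Leaving out arrays cannot create overlap, so the count without them says nothing about stability. Their direction is fixed by the choice of genes, and over 16 settings the differences ranged from 1.74 to 2.08 for Chi3l1, from 1.15 to 1.64 for Ecrg4 and from 0.41 to 0.45 for Numbl. Counts over all features moved more. With 1 array left out, 1481 to 2943 probe sets and 988 to 1994 genes passed, against 2492 and 1686, with the counts lower by more than 1.5 times without Young replicate 2 (1553 and 1047), Young replicate 3 (1492 and 988), Old replicate 5 (1481 and 1003) or Old replicate 6 (1618 and 1089). Without Old replicates 3 and 6 they were 1526 and 1012. Of the 138 pathway genes 10 to 20 passed with 1 array left out, against 15. The 20 came without Old replicate 3, where 1725 of all 14217 genes passed, and the 10 without Old replicate 5, where 1003 did. With array weights 27 pathway genes passed, beside 2239 of all genes. How the share of pathway genes compared with that of all genes thus varied with the setting. Among gene pairs 0 to 1 passed with 1 array left out, against 0, with the 1 without Old replicate 3, and 1 passed without Old replicates 3 and 6. For pairs with a marker score 0 to 3 passed with 1 array left out, against 1, with 3 without Young replicate 2 or Old replicate 3 and 0 without Young replicate 1, 3, 4 or 6 or Old replicate 2, 4 or 6. It was 0 with quantile normalization, without Old replicates 3 and 6, and with the non-overlapping probe sets of Cnp and Synpo. What else moved the counts was not tested. Replicate numbers did not pair the arrays: same-numbered arrays deviated together at 0.006 to 0.137, and no Young array correlated best with its own number. With the replicate block over 8 arrays, 1640 probe sets, 1069 genes and 8 pathway genes passed. Signal over background was not analysed here.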
